A study of Mus musculus with 6 samples.

Results

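Lecticans, tenascins, link proteins and their receptor partner Ptprz1 were followed in the ventral forebrain of mouse embryos labelled as knockouts of the transcription factor Olig2. The 8 genes were Bcan, Ncan, Vcan, Acan, Tnc, Tnr, Hapln1 and Ptprz1. Every probe set that the platform annotation assigns to exactly 1 of these symbols was taken, which gave 24 of the 45037 non-control probe sets on the array. A probe set counted as measured when it lay above its own array's median on at least 3 of the 6 arrays, whichever genotype those arrays had. This kept 14 member probe sets, from 6 genes, and left out 10, among them all probe sets of Acan and Hapln1.

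The tested embryos were Olig2 ko (-/-) and the comparison embryos Olig2 wt (+/+), both at E13.5 (E, embryonic day). RNA of 3 brains was pooled for each replicate and hybridised to 1 Affymetrix MOE430 2.0 array. The arrays analysed here are Olig2 ko replicates 2, 4 and 5 and Olig2 wt replicates 1, 4 and 5, while the design text states 5 replicates per genotype. No other allele or agent is named, the sources used here do not give how the Olig2 allele was made, and the tissue is called ventral telencephalon in the sample labels.

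Lecticans are chondroitin sulfate proteoglycans that bind hyaluronan at one end and tenascins at the other, and link proteins such as Hapln1 fasten the hyaluronan bond. In the embryonic brain this matrix surrounds progenitors, migrating cells and growing axons. Chondroitin sulfate matrix is known as a substrate that can restrict or steer axon growth. Ptprz1 is a receptor tyrosine phosphatase of radial glia and oligodendrocyte precursors, whose secreted form, phosphacan, joins the same matrix.

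All values below are log2 expression values as deposited, on which a difference of 1 is a doubling and 2.27 is the lowest value an array gives. Each array has 33.2% to 33.7% of its values no more than 0.03 above that floor. Levels are compared between arrays for 1 probe set and never between probe sets of different genes. Olig2 itself read 7.48, 7.53 and 7.76 on the Olig2 ko arrays, against 8.20, 8.22 and 8.42 on the Olig2 wt arrays. Its 3 Olig2 ko arrays were all below its Olig2 wt arrays, but the signal persisted in Olig2 ko, where it was 1.62-fold lower and on every array above at least 83.9% of probe sets. The sources used here do not say whether this probe set lies in the deleted part, so it checks the labels only in part. It differed by -0.69 (SE 0.11, limma adjusted p = 0.511). Of 7 markers of the ventral telencephalon on the array, 6 were measured, and their mean level was 9.01 to 9.13 in Olig2 ko and 8.99 to 9.28 in Olig2 wt. Singly, Gsx2 was higher on every Olig2 ko array (0.54), and the others but Lhx6 overlapped. The brightest probe set of Lhx6 was lower on every Olig2 ko array (-0.33), and its other measured probe set differed by 0.02. Nkx2-1, a defining gene of the medial ganglionic eminence, was not among the measured ones. On Olig2 ko replicate 2 the 12 markers of meninges and mesenchyme averaged 4.31, against 3.15 and 3.18 on the other Olig2 ko arrays, and the member values that its omission moved by over 1.5 times are also given without it. No label says that the pools came from separate litters, so p-values measure only the spread between these 6 arrays, whose small number limits the precision.

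No member passed the threshold of adjusted p 0.05 in limma, and the lowest adjusted p among the 14 was 0.511. Over all 22565 measured probe sets the count was 0 (0%), and 2121 (9.40%) had an unadjusted p under 0.05. Among the members 4 of 14 had an unadjusted p under 0.05, 3 of them lower (4.42% of all measured probe sets) and 1 higher (4.98%). In the same 4 the genotypes did not overlap, as in 16.2% of all measured probe sets: 3 read lower on every Olig2 ko array (7.25% of all measured probe sets did so) and 1 read higher on every Olig2 ko array (8.96% did so). The 4 come from Bcan, Ncan and Vcan, and 2 of them are probe sets of Ncan that went opposite ways. The Vcan one, 1433043_at, lay above its array's median on only 1 Olig2 ko array but on 3 Olig2 wt arrays. It was thus measured mainly through the wild type, so its place among the 3 lower ones is no evidence of a lower level. In all, 9 of the 14 were lower and 5 higher in Olig2 ko, with a median difference of -0.11, beside 49.3% lower and a median of 0.0022 over all measured probe sets. Probe sets of 1 gene share their source, so these counts are not counts of independent genes.

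**Figure D1:**
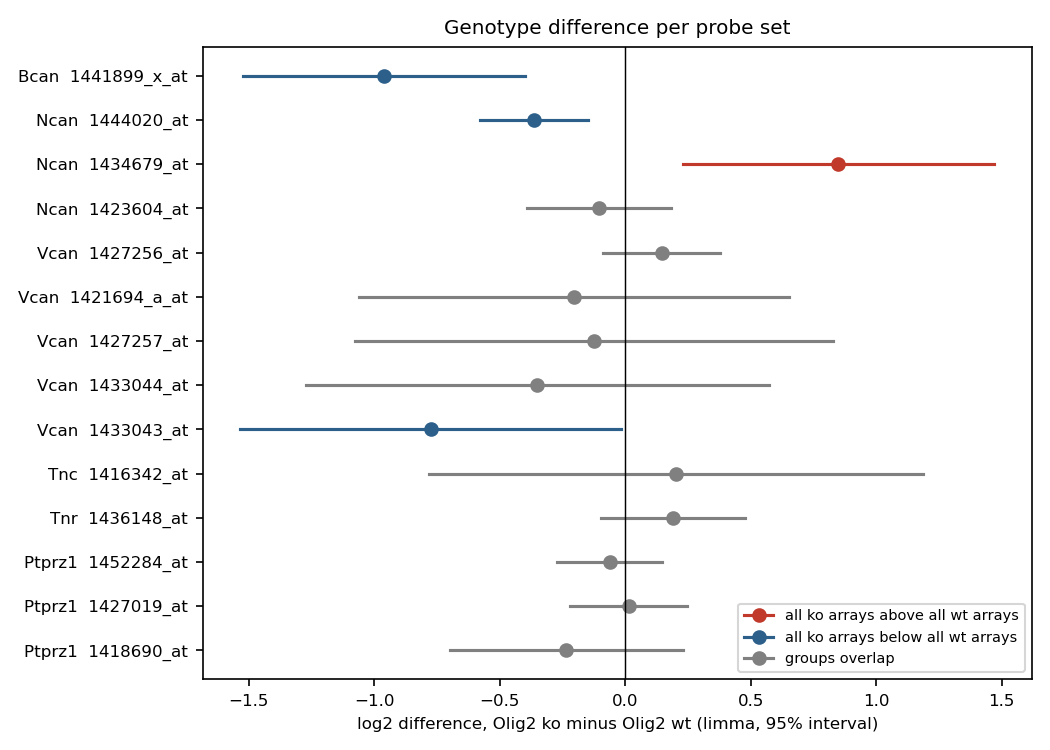
Log2 difference, Olig2 ko minus Olig2 wt, for the 14 measured member probe sets (points, with limma's 95% intervals as lines). Bcan, Ncan 1444020_at and Vcan 1433043_at lie below 0 and Ncan 1434679_at lies above 0 with genotypes that do not overlap, and none passed the adjusted threshold. Vcan 1433043_at was measured mainly through the Olig2 wt arrays.

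Bcan encodes brevican, a lectican confined to the nervous system and made by glial cells. It had the largest difference among the members, and Ncan, the gene of the related lectican neurocan, had probe sets in both directions. The promoters of both are shown because these are the member genes whose brightest measured probe sets separated the genotypes. They are RefSeq windows of build GRCm38.p6, from 250 bases before to 50 after the gene's start, at chr3:88000307-88000606 on the minus strand for Bcan and chr8:70120795-70121094 on the minus strand for Ncan. Capitals mark matches of CANNTG, the E-box core bound by basic helix-loop-helix factors such as Olig2.
Bcan: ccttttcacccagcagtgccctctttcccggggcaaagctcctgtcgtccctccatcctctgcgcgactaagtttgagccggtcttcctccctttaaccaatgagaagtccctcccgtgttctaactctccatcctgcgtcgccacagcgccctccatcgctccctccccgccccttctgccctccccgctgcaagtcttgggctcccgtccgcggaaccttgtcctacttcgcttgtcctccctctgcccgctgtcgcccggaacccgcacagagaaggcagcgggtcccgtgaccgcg
Ncan: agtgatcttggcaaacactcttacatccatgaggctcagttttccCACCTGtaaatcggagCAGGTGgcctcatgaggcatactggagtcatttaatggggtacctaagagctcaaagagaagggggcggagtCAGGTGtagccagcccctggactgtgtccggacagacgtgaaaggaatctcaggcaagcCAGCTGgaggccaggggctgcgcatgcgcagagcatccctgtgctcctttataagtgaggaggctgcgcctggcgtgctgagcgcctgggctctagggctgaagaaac

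The Bcan window held no CANNTG and the Ncan window held 4, of which 1 was CAGCTG. Both motifs read the same on either strand, and each CAGCTG is also a CANNTG. Of all 32851 RefSeq promoter windows of this length, 72.3% held CANNTG and 16.3% held CAGCTG. The motif CAGATG, searched on both strands and also contained in CANNTG, stood in 17.2% of all windows and in none of the 9 windows of the 8 member genes. These are matches of letters in short windows, and no binding was measured.

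Bcan probe set 1441899_x_at read 3.94, 3.98 and 4.24 on the Olig2 ko arrays, against 5.51, 4.75 and 4.79 on the Olig2 wt arrays. All Olig2 ko arrays were low, with a gap of 0.50 to the lowest Olig2 wt array, and Olig2 wt replicate 1 was the highest. The means were 4.06 ± 0.16 in Olig2 ko and 5.02 ± 0.43 in Olig2 wt (SD, n = 3 each). The difference was -0.96 (SE 0.23, 95% interval -1.52 to -0.40), a 1.95-fold lower level (limma adjusted p = 0.511). In whole tissue, fewer cells of a type and less RNA per cell cannot be told apart.

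The second Bcan probe set, 1416718_at, gave no measured level to set beside it. It read 2.28 on each Olig2 ko array, against 2.58 on Olig2 wt replicate 1 and 2.28 on the other Olig2 wt arrays, so 5 of its 6 values were at the floor. The array that stood out there was also the highest for 1441899_x_at. The ending _x_at marks probe sets whose probes can also match other transcripts, and whether that touches the Bcan value was not tested. Without Olig2 wt replicate 1 the difference at 1441899_x_at was -0.71.

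Markers of other cells were read beside the Bcan and Ncan differences. The 8 radial glia markers averaged 9.89 to 9.93 in Olig2 ko and 9.89 to 9.92 in Olig2 wt. At their brightest probe sets 4 were higher and 4 lower, from -0.18 (Nes) to 0.18 (Vim), and only Vim separated the genotypes. Measured probe sets ranged from -0.10 to 0.18 for Vim and from -0.47 to -0.18 for Nes. They ranged from 0.08 to 0.42 for Slc1a3 and from -0.11 to 0.54 for Pax6. Of 5 oligodendrocyte precursor markers 3 were measured, at a mean of 6.71 to 7.24 in Olig2 ko and 6.73 to 7.21 in Olig2 wt. These genes differed in direction, with Olig1 by 1.69, Olig2, the gene knocked out, by -0.69 and Pdgfra by -1.04. Their mean is therefore not read as a level of precursors. Pdgfra read 5.78, 4.05 and 4.36 in Olig2 ko, against 6.24, 5.60 and 5.47 in Olig2 wt. Its genotypes overlapped (95% interval -2.24 to 0.16), and it was highest on Olig2 ko replicate 2 and Olig2 wt replicate 1. The lineage genes Sox10 and Cspg4 were too dim to be measured, at means of 2.85 and 2.74 in Olig2 ko and 3.01 and 2.79 in Olig2 wt. The 9 neuronal markers averaged 10.90 to 11.00 in Olig2 ko and 11.01 to 11.24 in Olig2 wt, without overlap (exact permutation p = 0.1, two-sided, the smallest that 3 against 3 can give). Singly, at their brightest probe sets, only Ina (-0.60) and Mapt (-0.56) separated the genotypes. The other neuronal markers overlapped there, with differences between -0.13 and 0.02. Measured probe sets of 1 gene could disagree, from -0.07 to 0.62 for Dcx, -0.08 to 0.38 for Map2 and -0.47 to 0.006 for Elavl3. Those of Mapt ranged from -0.56 to 0.02, and those of Ina from -0.60 to -0.38. The 6 markers of the diencephalon, which lies outside the labelled tissue, averaged 6.66 to 7.01 in Olig2 ko and 7.35 to 7.43 in Olig2 wt. These means did not overlap either (exact permutation p = 0.1, two-sided). Singly, 5 of them were lower, from -1.38 (Gbx2) to -0.39 (Otp), and Sim1 was higher (0.26). Only Gbx2, Tcf7l2 and Barhl2 separated the genotypes, while Lhx9, Otp and Sim1 overlapped. All measured probe sets of Tcf7l2 and Lhx9 were lower, and the second measured probe set of Sim1 differed by -0.02. The part of these shifts in the Bcan and Ncan values was not tested.

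Ncan was measured by 3 probe sets that disagreed. The brightest, 1444020_at, read 11.05, 10.98 and 11.03 on the Olig2 ko arrays, against 11.48, 11.24 and 11.45 on the Olig2 wt arrays. All Olig2 ko arrays were lower, and they differed among themselves less than the Olig2 wt arrays did. The means were 11.02 ± 0.04 in Olig2 ko and 11.39 ± 0.13 in Olig2 wt (SD, n = 3 each), a difference of -0.36 (SE 0.09, 95% interval -0.58 to -0.15) (limma adjusted p = 0.511).

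The next probe set of Ncan, 1434679_at, read 8.47, 8.88 and 8.52 on the Olig2 ko arrays, against 7.52, 7.49 and 8.31 on the Olig2 wt arrays. Here every Olig2 ko array was higher, and Olig2 wt replicate 5 came within 0.17 of them. The difference was 0.85 (SE 0.25, 95% interval 0.23 to 1.47), a 1.80-fold higher level (limma adjusted p = 0.511). The third, 1423604_at, read 4.27, 4.55 and 4.59 in Olig2 ko, against 4.44, 4.62 and 4.66 in Olig2 wt, with overlapping genotypes and a difference of -0.10 (95% interval -0.39 to 0.18), or -0.0052 without Olig2 ko replicate 2.

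The disagreement itself was set out within arrays. Probe set 1444020_at exceeded 1434679_at by 2.58, 2.11 and 2.52 on the Olig2 ko arrays, against 3.96, 3.75 and 3.14 on the Olig2 wt arrays. The gap between the probe sets was smaller on every Olig2 ko array, by 1.21 on average (-1.21, exact permutation p = 0.1, two-sided, the smallest possible, and 0.533 adjusted over the 8 probe set pairs compared in Ncan, Vcan and Ptprz1). It lay between -1.45 and -1.04 with any single array left out. A mean over the 3 probe sets gave 0.13 for Ncan, opposite in sign to the brightest. The sources used here do not say which exons the probe sets match, so no single direction is reported for Ncan.

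**Figure D2:**
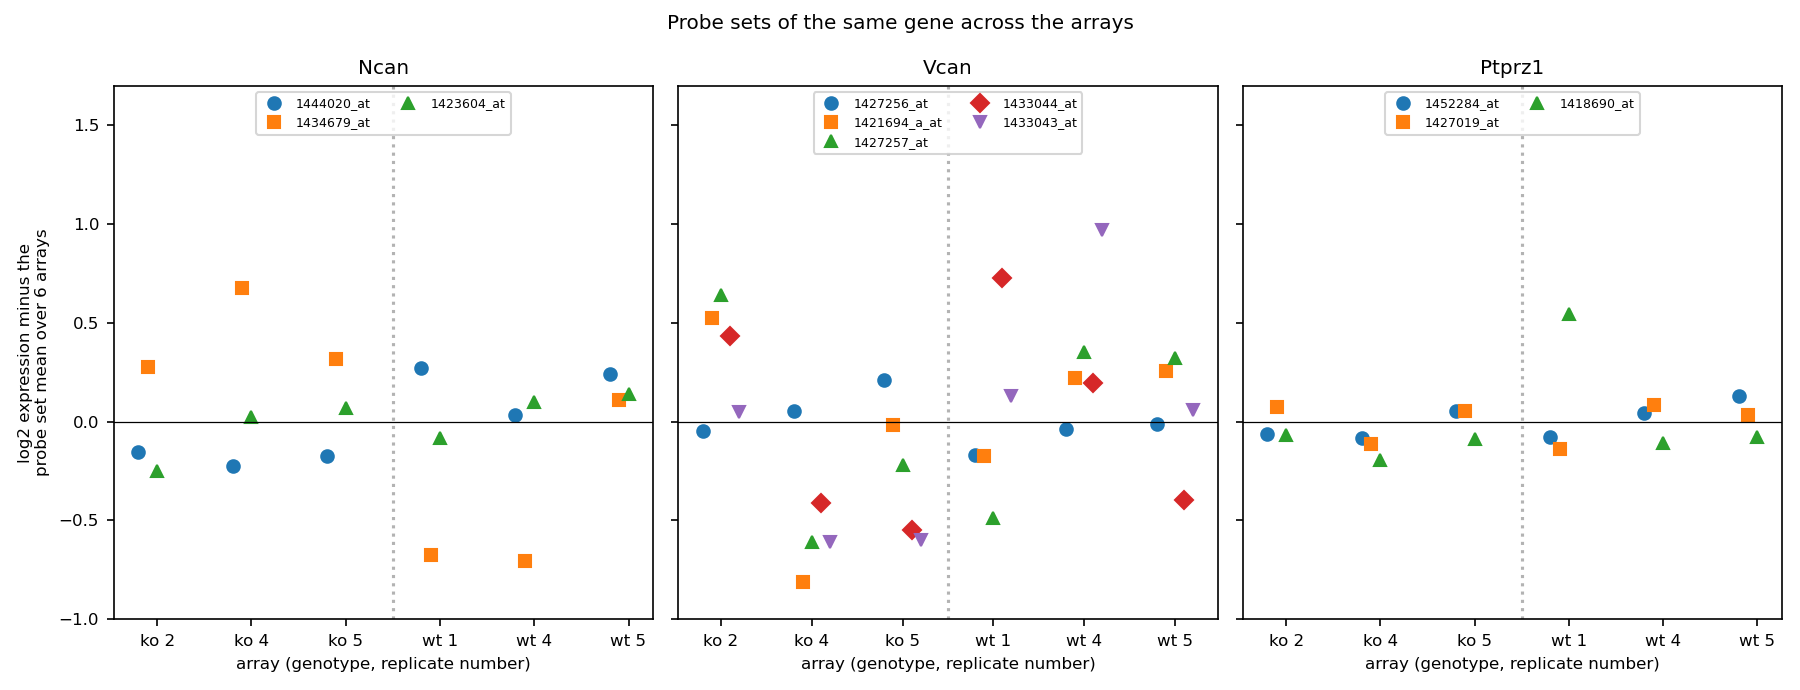
Log2 expression minus each probe set's mean over the 6 arrays, for all measured probe sets of Ncan, Vcan and Ptprz1, with Olig2 ko arrays left of the dotted line and Olig2 wt arrays right of it. Ncan 1444020_at and 1434679_at change sides in opposite directions, Vcan probe sets scatter within each genotype, and 2 of the 3 Ptprz1 probe sets stay near 0.

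Vcan encodes versican, the lectican made by many tissues including mesenchyme. Of its 8 probe sets 5 were measured, 4 of them lower and 1 higher in Olig2 ko. The brightest, 1427256_at, read 10.41, 10.51 and 10.67 on the Olig2 ko arrays, against 10.29, 10.42 and 10.45 on the Olig2 wt arrays. The genotypes overlapped, and the difference of 0.15 had a 95% interval of -0.09 to 0.38 (limma adjusted p = 0.556).

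Probe sets 1421694_a_at and 1427257_at of Vcan spread widely within Olig2 ko. The first read 8.39, 7.05 and 7.85 on the Olig2 ko arrays, against 7.69, 8.09 and 8.13 on the Olig2 wt arrays. The second read 7.30, 6.05 and 6.44 on the Olig2 ko arrays, against 6.17, 7.01 and 6.98 on the Olig2 wt arrays. In both, Olig2 ko replicate 2 was the highest and Olig2 ko replicate 4 the lowest of all 6 arrays, whereas 1427256_at was lower on replicate 2 than on replicate 4. Their differences were -0.20 (95% interval -1.06 to 0.65) and -0.12 (95% interval -1.07 to 0.83). Without Olig2 ko replicate 4 both turned positive, at 0.15 and 0.15, and without Olig2 ko replicate 2 they were -0.52 and -0.48. With the replicate number as a block they were -0.66 and -0.75 (limma adjusted p = 0.587 and 0.529). That fit compares replicates 4 and 5 alone, because Olig2 ko replicate 2 and Olig2 wt replicate 1 share no number with another array.

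The dimmer Vcan probe set 1433043_at read 3.21, 2.55 and 2.56 on the Olig2 ko arrays, against 3.29, 4.13 and 3.22 on the Olig2 wt arrays. It cleared its array's median on 1 Olig2 ko and 3 Olig2 wt arrays, and the genotypes were separated by only 0.012, so it was measured mainly through the wild type. Its difference was -0.77 (SE 0.31, 95% interval -1.53 to -0.02) (limma adjusted p = 0.511). Without Olig2 wt replicate 4 it was -0.48. One alternative centred the arrays on medians other than those used to call a probe set measured. In it 2 rather than 3 member probe sets were lower without overlap, and this one had the smallest gap of the 3. Probe set 1433044_at read 3.99, 3.14 and 3.01 in Olig2 ko, against 4.28, 3.75 and 3.16 in Olig2 wt, with overlap and a difference of -0.35 (95% interval -1.27 to 0.57). It was -0.66 without Olig2 ko replicate 2, -0.64 without Olig2 wt replicate 5 and -0.074 without Olig2 wt replicate 1.

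The other 3 Vcan probe sets were not measured. Probe sets 1447586_at and 1459767_x_at were at the floor on all 6 arrays. Probe set 1447887_x_at read 2.37 to 2.45 in Olig2 ko and 2.37 to 2.81 in Olig2 wt. A mean over the 5 measured probe sets gave -0.26 for Vcan and a mean over all 8 gave -0.18, both opposite in sign to the brightest.

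**Figure D3:**
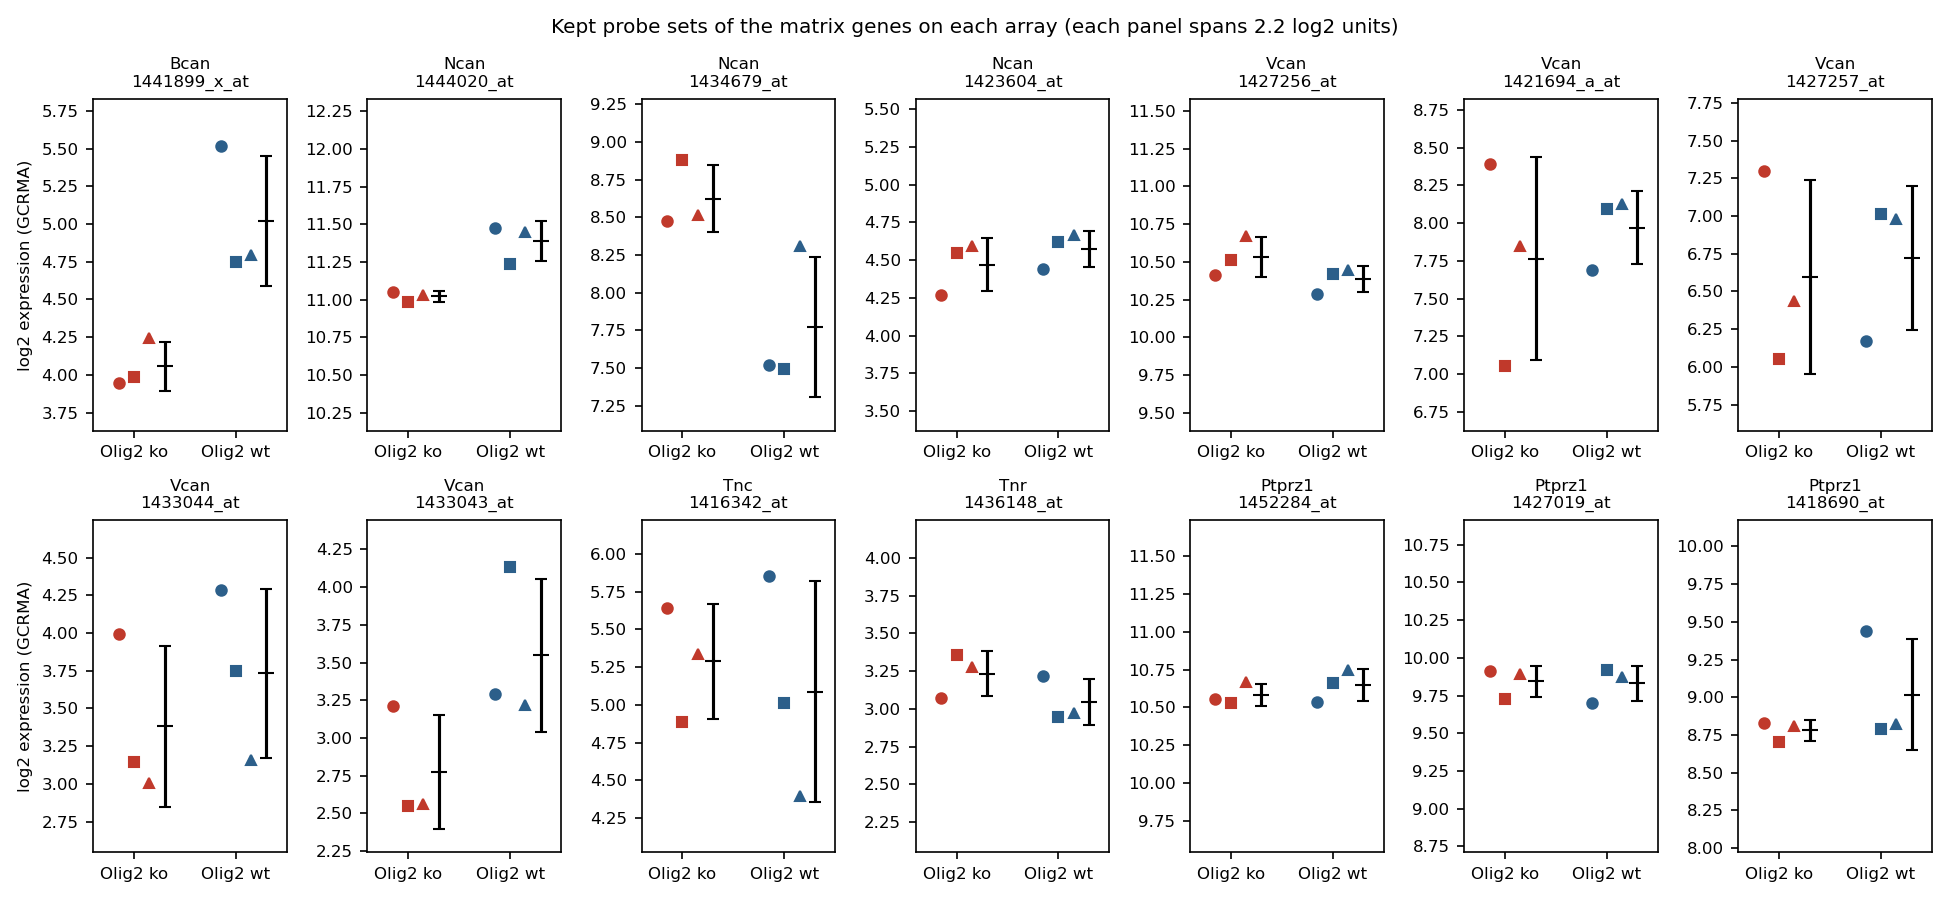
Log2 expression on each array for the 14 measured member probe sets, Olig2 ko left and Olig2 wt right, with the mean and SD of 3 arrays in black; circles, squares and triangles are replicates 2, 4 and 5 of Olig2 ko and replicates 1, 4 and 5 of Olig2 wt. Bcan and Ncan 1444020_at are lower on every Olig2 ko array, and Tnc varies as much within a genotype as between them.

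Acan encodes aggrecan, the lectican of cartilage and of mature perineuronal nets, and Hapln1 encodes the link protein that joins lecticans to hyaluronan. The single Acan probe set, 1449827_at, was at the floor on all 6 arrays. The 4 Hapln1 probe sets read 2.27 to 2.35 on the Olig2 ko arrays and 2.27 on every Olig2 wt array. At this signal neither gene was distinguishable from background, which bounds no difference between the genotypes.

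In the RefSeq table of assembly GRCm38.p6 each lectican gene stands beside a link protein gene, with no other protein-coding gene between them: Bcan with Hapln2, Ncan with Hapln4, Acan with Hapln3 and Vcan with Hapln1. None of the 8 probe sets of these 4 link protein genes was measured. Hapln2 was at the floor in all 12 of its values, and Hapln4 read 2.31 throughout.

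The tenascins are large matrix glycoproteins that bind lecticans, integrins and Ptprz1. Tnc encodes tenascin-C of radial glia and mesenchyme, and probe set 1416342_at read 5.64, 4.89 and 5.34 on the Olig2 ko arrays, against 5.85, 5.01 and 4.39 on the Olig2 wt arrays. The genotypes overlapped, with Olig2 wt replicates holding both the highest and the lowest value. This made a difference of 0.20 (SE 0.40, 95% interval -0.78 to 1.18; limma adjusted p = 0.834). It was -0.14 without Olig2 wt replicate 5, 0.59 without Olig2 wt replicate 1 and 0.02 without Olig2 ko replicate 2.

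The second Tnc probe set, 1456344_at, was not measured, but it was highest on the same arrays. It read 3.48, 2.76 and 2.83 in Olig2 ko, against 3.72, 2.74 and 2.71 in Olig2 wt. It lay above its array's median only on Olig2 ko replicate 2 and Olig2 wt replicate 1.

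The mean of the 12 markers of meninges and mesenchyme was also highest on those arrays, though not every marker was. Their mean level was 4.31, 3.15 and 3.18 on the Olig2 ko arrays and 3.64, 3.15 and 3.18 on the Olig2 wt arrays, and 3 of the 12 were measured. The fibrillar collagen gene Col3a1 read 8.10, 4.04 and 4.09 in Olig2 ko, against 6.20, 4.35 and 4.67 in Olig2 wt. Col1a2 read 6.04, 2.51 and 2.50 in Olig2 ko, against 3.49, 2.45 and 2.45 in Olig2 wt. In all, 7 of the 12 were higher on both of those arrays than on the other 4. The measured marker Pdgfrb, a receptor of pericytes and mesenchyme, was not among them. It read 7.33, 7.19 and 7.30 in Olig2 ko, against 6.92, 6.73 and 6.93 in Olig2 wt, higher on every Olig2 ko array (difference 0.41, limma adjusted p = 0.511). The second measured probe set of Pdgfrb went the other way, by -0.15. Col1a1, Tbx18 and Col6a1 were not among the 7 either, and Foxc2 was at the floor on every array. The part of these cells in the Tnc and Vcan values was not tested.

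**Figure D4:**
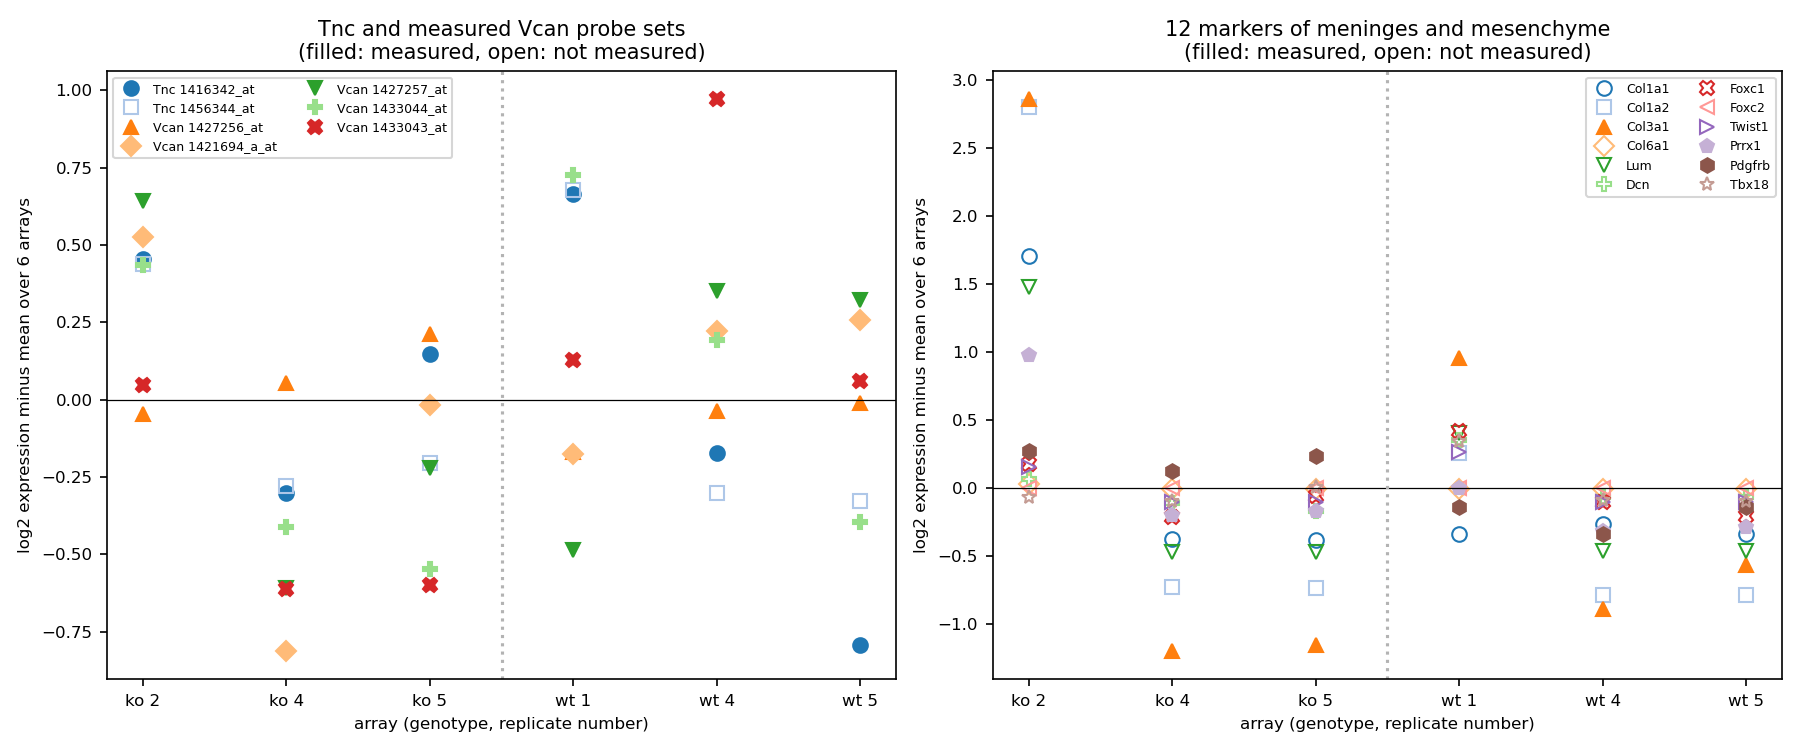
Log2 expression minus the mean over the 6 arrays, on each array, for both Tnc probe sets and all 5 measured Vcan probe sets (left panel) and for all 12 markers of meninges and mesenchyme (right panel), with Olig2 ko arrays left of the dotted line and Olig2 wt arrays right of it and open symbols for what was not measured. Both Tnc probe sets, Vcan 1433044_at and 7 of the 12 markers are higher on Olig2 ko replicate 2 and Olig2 wt replicate 1 than on the other 4 arrays, and the other Vcan probe sets and 5 markers, Pdgfrb among them, are not.

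Tnr encodes tenascin-R, which in the mature brain comes mainly from oligodendrocytes and some neurons. Its single probe set, 1436148_at, read 3.07, 3.35 and 3.28 on the Olig2 ko arrays, against 3.22, 2.94 and 2.97 on the Olig2 wt arrays. It lay near the arrays' medians, above them on 2 Olig2 ko arrays and 1 Olig2 wt array. The difference of 0.19 (SE 0.12, 95% interval -0.10 to 0.48) came with overlapping genotypes (limma adjusted p = 0.548). It was 0.36 with the replicate number as a block (limma adjusted p = 0.529), a fit that compares replicates 4 and 5 alone.

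Ptprz1 was bright at all 3 probe sets, and the intervals of 1452284_at and 1427019_at were among the narrowest of the members. Probe set 1452284_at read 10.55, 10.53 and 10.67 on the Olig2 ko arrays, against 10.54, 10.66 and 10.75 on the Olig2 wt arrays. The difference was -0.06 (95% interval -0.27 to 0.15). Probe set 1427019_at read 9.91, 9.73 and 9.89 in Olig2 ko, against 9.70, 9.92 and 9.87 in Olig2 wt, a difference of 0.01 (95% interval -0.22 to 0.25), or -0.021 without Olig2 ko replicate 2. The genotypes overlapped at both.

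Probe set 1418690_at of Ptprz1 stood apart on 1 array. It read 8.83, 8.70 and 8.81 on the Olig2 ko arrays, against 9.44, 8.79 and 8.82 on the Olig2 wt arrays. The high value on Olig2 wt replicate 1 made most of the difference of -0.24 (95% interval -0.70 to 0.23), which was -0.02 without that array. Limma's adjusted p was 0.753, 0.963 and 0.607 for the 3 probe sets in the order given.

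Genes that make, bind or cut this matrix were taken from lists chosen with earlier results of these data known. Of 45 such genes on the array 29 were measured, 15 higher and 14 lower in Olig2 ko, with a median difference of 0.002. Over all 10630 measured genes 5256 were higher and 5374 lower, with a median of -0.002. None of the 29 passed limma's adjusted threshold, and 2 had an unadjusted p under 0.05, against 7.90% of all measured genes.

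**Figure D5:**
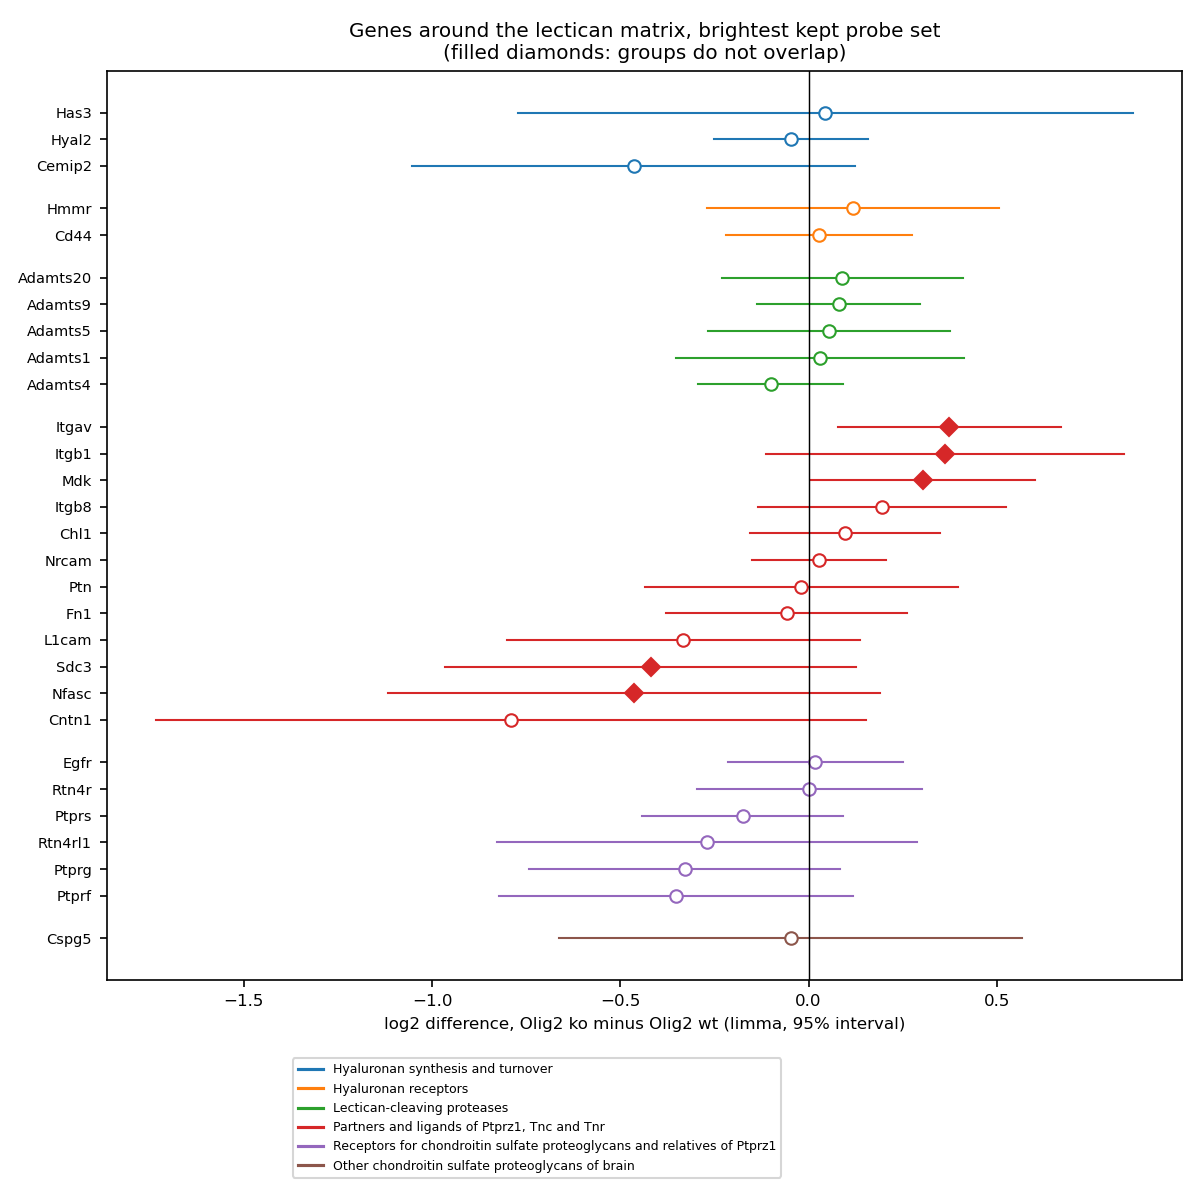
Log2 difference, Olig2 ko minus Olig2 wt, with limma's 95% intervals, for the brightest measured probe set of 29 genes around the lectican matrix, grouped by role. Filled diamonds mark the 5 genes whose genotypes do not overlap, all in the group of partners and ligands.

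Hyaluronan, the sugar chain on which lecticans assemble, is made by Has enzymes. Of 7 genes for its synthesis and turnover 3 were measured, 1 higher and 2 lower, with Has3 differing by 0.04 (95% interval -0.77 to 0.86). Cemip2, in the same list, differed by -0.46 with overlapping genotypes (95% interval -1.05 to 0.12). Its 3 measured probe sets ranged from -0.54 to 0.02. Of 4 hyaluronan receptors 2 were measured, the surface receptor Cd44 (0.03) and Hmmr (0.12), with overlapping genotypes. The Adamts proteases that cut lecticans had 5 of 6 genes measured, 4 higher and 1 lower, all between -0.10 and 0.09. Cspg5, another chondroitin sulfate proteoglycan of brain, differed by -0.05 (95% interval -0.66 to 0.57).

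Of 15 partners and ligands of Ptprz1 and the tenascins, 12 were measured, 6 higher and 6 lower. The genotypes did not overlap for 3 that were higher (8.45% of all measured genes) and 2 that were lower (7.96%). These were also the only 3 higher and 2 lower without overlap among all 29 measured genes of the lists. Mdk encodes midkine, a secreted ligand of Ptprz1, and read 10.76, 10.98 and 10.90 on the Olig2 ko arrays, against 10.37, 10.62 and 10.74 on the Olig2 wt arrays. Every Olig2 ko array was higher, though by as little as 0.02, and the difference was 0.30 (SE 0.12, limma adjusted p = 0.511), or 0.20 without Olig2 wt replicate 1. Ptn, the related ligand pleiotrophin, differed by -0.02 at its brightest probe set, and its measured probe sets ranged from -0.42 to 0.31.

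Among integrins, which bind tenascin-C, Itgav read 7.35, 7.45 and 7.19 in Olig2 ko, against 6.77, 6.97 and 7.12 in Olig2 wt, a difference of 0.37 (95% interval 0.08 to 0.67, limma adjusted p = 0.511). Its second measured probe set differed by -0.04. Itgb1 read 8.08, 8.07 and 7.97 in Olig2 ko, against 7.24, 7.92 and 7.87 in Olig2 wt, a difference of 0.36 (limma adjusted p = 0.519) that was 0.14 without Olig2 wt replicate 1. All 3 measured probe sets of Itgb1 were higher, by 0.07 to 0.49.

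For both genes that were lower without overlap, the size of the difference rested on Olig2 wt replicate 1, while the separation held without it. Nfasc, a neural cell adhesion molecule, read 7.19, 7.25 and 7.25 in Olig2 ko, against 8.31, 7.29 and 7.48 in Olig2 wt, a difference of -0.46 (limma adjusted p = 0.53). Without Olig2 wt replicate 1 it was -0.16, and its 3 measured probe sets ranged from -0.55 to -0.041. The syndecan Sdc3, a receptor for pleiotrophin, read 7.68, 7.70 and 7.61 in Olig2 ko, against 8.60, 7.83 and 7.83 in Olig2 wt, a difference of -0.42 (limma adjusted p = 0.519) that was -0.16 without that array. Its 3 measured probe sets ranged from -0.42 to 0.043.

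Cntn1, a cell adhesion molecule that binds Ptprz1 and tenascin-R, was chosen after its values were seen. It read 7.26, 5.98 and 6.23 in Olig2 ko, against 7.66, 7.34 and 6.84 in Olig2 wt. The genotypes overlapped through Olig2 ko replicate 2, and the difference was -0.79 (95% interval -1.73 to 0.15, limma adjusted p = 0.513), or -1.18 without that array. The second measured probe set of Cntn1 differed by -0.24. The receptors for chondroitin sulfate proteoglycans and the relatives of Ptprz1 had all 6 genes measured, 2 higher and 4 lower, from -0.35 to 0.02, each with overlapping genotypes.

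The genes most like Bcan and Ncan in profile were found by the root mean square distance between log2 values over the 6 arrays, each centred on its own mean, among 10629 other genes. Nearest to Bcan was the homeobox gene Six3, at a distance of 0.14 log2 units, followed by Sez6 and Arhgef1 at 0.19 each, where the median gene lay at 0.56. Six3 read 7.47, 7.44 and 7.50 in Olig2 ko, against 9.02, 7.90 and 8.16 in Olig2 wt, with Olig2 wt replicate 1 highest as in Bcan. Nearest to Ncan 1444020_at were Axin1, an inhibitor of Wnt signalling, at 0.02, and Snap29 and Gstp1 at 0.03 each, where the median gene lay at 0.23. These likenesses describe 6 arrays.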

How the data were processed

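The authors deposited log2 expression values per probe set. According to the design text of the series, GCOS and MAS handled the scans, and GCRMA with quantile normalization gave the values. No version of these tools is stated in the sources used here. GCRMA compresses differences near its floor, and quantile normalization hides any change in total RNA. The table holds 45101 probe sets, 64 of them controls. Probe sets were named from the platform annotation, where 34945 had 1 symbol, 932 several and 9160 none.

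Each probe set was tested between genotypes in limma 3.58.1 (R 4.3.3, two-sided moderated test), with p-values adjusted by Benjamini-Hochberg over the 22565 measured probe sets. A gene was described from its brightest measured probe set. Alternatives were filters, normalization, variance models, array weights, a replicate block and arrays left out. Other matrix genes were named where genotypes did not overlap, and profile likeness was listed for members whose brightest probe set separated the genotypes. Limma was checked on simulated data. Members and lists were chosen with earlier results of these data known. Replicate numbers 4 and 5 occur in both genotypes, so a replicate block takes the genotype difference from these arrays alone. Same-numbered deviations from the genotype mean correlated at -0.29 and 0.32, and no label says that a number marks a shared litter, so the main comparison has no block.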

Additional observations from a re-analysis of the deposited data

How the results depend on the processing

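No member probe set passed adjusted p 0.05 under any of the 14 alternatives (lowest 0.235), and the number of probe sets past it was 0 in each. The number at an unadjusted p under 0.05, 2121 over all arrays, was 3491 with array weights, 3276 with Olig2 ko replicate 2 and Olig2 wt replicate 4 left out together, 2014 with the replicate block, and 1121 to 3490 with any 1 array left out. Of the 14 measured member probe sets 9 kept their direction in every alternative that held them. Bcan ranged from -1.10 to -0.66, Ncan 1444020_at from -0.45 to -0.32 and Ncan 1434679_at from 0.59 to 1.12. Directions turned for Ptprz1 1427019_at (-0.024 with array weights, -0.087 with the replicate block, -0.052 to 0.072 with 1 array left out), Vcan 1421694_a_at (-0.52 to 0.15 with 1 array left out), Vcan 1427257_at (-0.48 to 0.15) and Tnc 1416342_at (-0.14 to 0.59 with 1 array left out, -0.011 without the pair). They also turned for Ncan 1423604_at (0.019 without that pair), and for the gene means of Ncan (0.13 over all probe sets and over measured ones) and Vcan (-0.18 over all, -0.26 over measured ones). The cause was not tested. The filter at log2 above 4 held no value for Tnr, Vcan 1433043_at and Vcan 1433044_at. With the replicate block Bcan was -0.66 (limma adjusted p = 0.513) and Vcan 1433043_at was -1.12, and no call changed. The block leaves the genotype difference to replicates 4 and 5 alone, and the numbers are not known to pair the arrays. Without Olig2 ko replicate 2 and Olig2 wt replicate 4, 5 member probe sets were lower and 3 higher without overlap, against 23.3% and 25.6% of all measured probe sets. The small number of arrays, and signals near the floor for Acan, Hapln1 and Tnr, limit what could be seen.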
